A study of Mus musculus with 8 samples.

Results

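Bach2 encodes a transcriptional repressor that keeps lymphocytes in a less differentiated state, and its locus was examined in 8 ATAC-seq peak lists. ATAC-seq maps open chromatin with a transposase that inserts sequencing adapters into accessible DNA. A peak counted as a Bach2 peak where it overlapped the Bach2 gene body (gene ID 12014, chr4:32238413-32586109 of GRCm38, 348 kb long) or the 50 kb on either side of it. Peaks of all 8 lists were merged into regions where they overlapped by at least 1 bp. Of 175276 regions in all, 133 lay in the Bach2 window and 114 touched the gene body itself.

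Bach2 belongs to the bZIP family and binds DNA as a partner of small Maf proteins. In T cells it restrains AP-1 driven programmes and the effector regulator Blimp-1, encoded by Prdm1, and mice that lack it form fewer regulatory T cells. Tet1 and Tet3 encode enzymes that oxidise methylated cytosine in CpG dinucleotides, a step towards loss of DNA methylation. IL-2 signals through STAT5 and, with TGF-β, favours regulatory T cell differentiation in culture.

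Naive CD4 T cells sorted from mouse spleen were stimulated through CD3 and CD28 and collected at 48 h, with 90000 cells per sample. All 4 groups received 20 ng/mL TGF-β. The groups were Tet1/3 cDKO (conditional double knockout) cells plus 100 U IL-2, cDKO cells without IL-2, control cells plus 100 U IL-2 and control cells without IL-2, each with 2 libraries. Controls carry the name WT in another label. The sources used here do not give age, the Cre driver, the deleted exons or which animals gave which library. The design text calls the replicates biological, but since their animals are unknown the p-values cover the spread among the libraries and nothing wider.

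RefSeq's promoter table gives 1 start for Bach2, 179 kb inside the gene body on the plus strand, without naming its transcript. Any start nearer the lower-coordinate end is not covered by that entry. No peak in any deposited list overlapped the 300 bases around that start (250 before it and 50 after). The nearest region, chr4:32413631-32413805, lay 3380 bp away. The promoters of Bach2os, a long noncoding RNA inside Bach2 on the minus strand, and of Casp8ap2, the gene beyond Gja10 at the higher-coordinate edge, are shown beside it because the 3 differ in how many lists held a region there. Sequences are from RefSeq (GRCm38.p6), on the strand of each gene, with CpG dinucleotides, the substrate sites of Tet enzymes when methylated, in capitals.
Bach2, chr4:32417185-32417484, plus strand: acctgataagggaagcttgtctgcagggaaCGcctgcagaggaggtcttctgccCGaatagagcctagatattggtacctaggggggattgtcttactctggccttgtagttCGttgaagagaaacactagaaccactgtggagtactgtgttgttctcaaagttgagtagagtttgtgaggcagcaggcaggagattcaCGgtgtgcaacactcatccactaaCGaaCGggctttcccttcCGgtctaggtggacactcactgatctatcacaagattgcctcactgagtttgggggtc
Bach2os, chr4:32571613-32571912, minus strand: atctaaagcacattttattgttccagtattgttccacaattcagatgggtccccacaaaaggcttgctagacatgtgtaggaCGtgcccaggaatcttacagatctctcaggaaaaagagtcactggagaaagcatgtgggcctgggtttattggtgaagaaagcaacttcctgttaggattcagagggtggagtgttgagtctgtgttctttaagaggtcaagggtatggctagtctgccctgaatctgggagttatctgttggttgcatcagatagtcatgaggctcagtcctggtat
Casp8ap2, chr4:32615220-32615519, plus strand: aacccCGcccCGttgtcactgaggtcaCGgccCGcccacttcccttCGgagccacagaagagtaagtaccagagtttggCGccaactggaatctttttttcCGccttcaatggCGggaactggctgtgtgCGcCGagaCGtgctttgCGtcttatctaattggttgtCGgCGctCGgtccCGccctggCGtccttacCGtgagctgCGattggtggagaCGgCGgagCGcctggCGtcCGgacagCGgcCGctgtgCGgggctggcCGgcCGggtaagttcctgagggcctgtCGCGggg

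A promoter counted as covered in a list where it overlapped a region that the list held. The Casp8ap2 promoter was covered in all 8 equal-number lists, each cut to the 65811 peaks of largest −log10 p. The Bach2os promoter was covered, at its edge, in 4 of those lists and in 7 of the 8 deposited lists of full length. RefSeq's promoter entry for Bach2, inside the gene, was covered in 0 lists of either kind. A region over the lower-coordinate end of Bach2 (chr4:32238347-32240297), upstream on the plus strand, was in all 8 lists of both kinds. Whether transcription starts there was not tested. The 4 equal-number lists for Bach2os were both cDKO libraries without IL-2, replicate 2 of control plus IL-2 and replicate 2 of control without IL-2. The Casp8ap2 promoter held 31 CpGs, more than 86.0% of 21262 protein-coding promoters. The Bach2 entry inside the gene held 7, and 35.7% of those promoters held fewer. The Bach2os promoter held 1. Across protein-coding promoters 50.8% were covered in all 8 equal-number lists and 38.2% in no deposited list. Covered promoters had a median of 22 CpGs, against 3 in those covered in no deposited list. The fourth promoter of the window, that of the connexin gene Gja10, held 2 CpGs and was covered in no list, with the nearest region 844 bp away.

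Short motifs were searched on both strands of the 4 promoters. They were TGANTCA for AP-1, TTCNNNGAA for STAT5, TGTGGT for RUNX and CCGGAAG for ETS factors, and a STAT5 match can share bases with an ETS match. RefSeq's promoter entry for Bach2, inside the gene and covered in 0 lists, held a STAT5 match, TTCGTTGAA at chr4:32417295-32417303. It also held an ETS match, read as CTTCCGG on the printed strand at chr4:32417423-32417429. The region over the lower-coordinate end of Bach2 was not searched. These matches do not overlap, and each includes 1 of the 7 CpGs. The STAT5 motif occurs in 7.69% of protein-coding promoters, the ETS motif in 11.6%, the AP-1 motif in 6.99% and the RUNX motif in 15.0%. None of the 4 motifs was found in the other 3 promoters. A match describes letters only.

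The lists differed in length and state no read depth. Deposited lists held 96752 to 115250 peaks in cDKO libraries and 65811 to 145979 in control libraries, hence the equal-number lists. The shortest, from the second control library plus IL-2, stood apart, since its equal-number list was its whole list and reached down to a −log10 p of 3.25, against 7.97 to 13.5 in the other 7. Markers of T cells (Cd3d, Cd3e, Cd3g, Cd4, Cd28 and Thy1) had regions in every library, summing to 14 to 18 in cDKO and 16 to 17 in control. The B cell list (4 genes) summed to 1 to 2 in cDKO and 2 to 3 in control, the myeloid list (4) to 6 to 7 and 5 to 7, and the CD8 list (2) to 1 to 2 in both genotypes. The NK list (2) summed to 1 in every library. Members of these lists differed: Ms4a1, Ncr1 and Lyz2 had no region in any library. Cd79a (B cell), Cd8b1 (CD8), Klrb1c (NK) and Itgam (myeloid) had regions in all 8. The part of other cells in the results below was not tested. Tet1 held 5 to 8 regions in cDKO and 6 to 8 in control, and Tet3 held 11 in cDKO and 10 to 12 in control, which checks no deletion because the deleted exons are not given.

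Bach2 was among the loci richest in regions. Of 7633 protein-coding genes with at least 20 regions in the same kind of window, only Foxp1 (173), Inpp4b (137), Pde4d (135) and Lpp (134) had more than its 133 regions, and the median gene had 25. At 29.7 regions per 100 kb Bach2 was also denser than 98.8% of these genes (median 18.8). Regions in all 8 equal-number lists numbered 34 at Bach2, and only Foxp1 had more (39). Per 100 kb there were 7.59 of these, a density above that of 75.4% of the genes.

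Of the 133 regions, 51 (38.3%) were in no equal-number list, against 45.3% of all regions, and 25 were in a single deposited list. The 34 regions in all 8 equal-number lists made up 25.6% of the locus, close to the 23.2% of all regions. They were wide, with a median of 672 bp (267 to 1951 bp), against 209 bp for the other regions of the locus and 658 bp for regions in all 8 lists genome-wide. Their summits lay within a median of 79 bp of each other across the 8 libraries, and within 100 bp at 21 of 34 regions.

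Regions in all 8 lists were unevenly spread along the gene. The first 50 kb from the lower-coordinate end held 10, the stretch from 100 to 150 kb held 8 and that from 150 to 200 kb held 7. The next 100 kb held 2, at 243 and 299 kb. A gap of 55.4 kb (from 32426011 to 32481417) lay before the first of them. Another of 55.1 kb (from 32482006 to 32537130) lay between the 2. The RefSeq promoter lies in the stretch from 150 to 200 kb, and the 50 kb below the gene held 0 of them among its 14 regions.

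**Figure D1:**
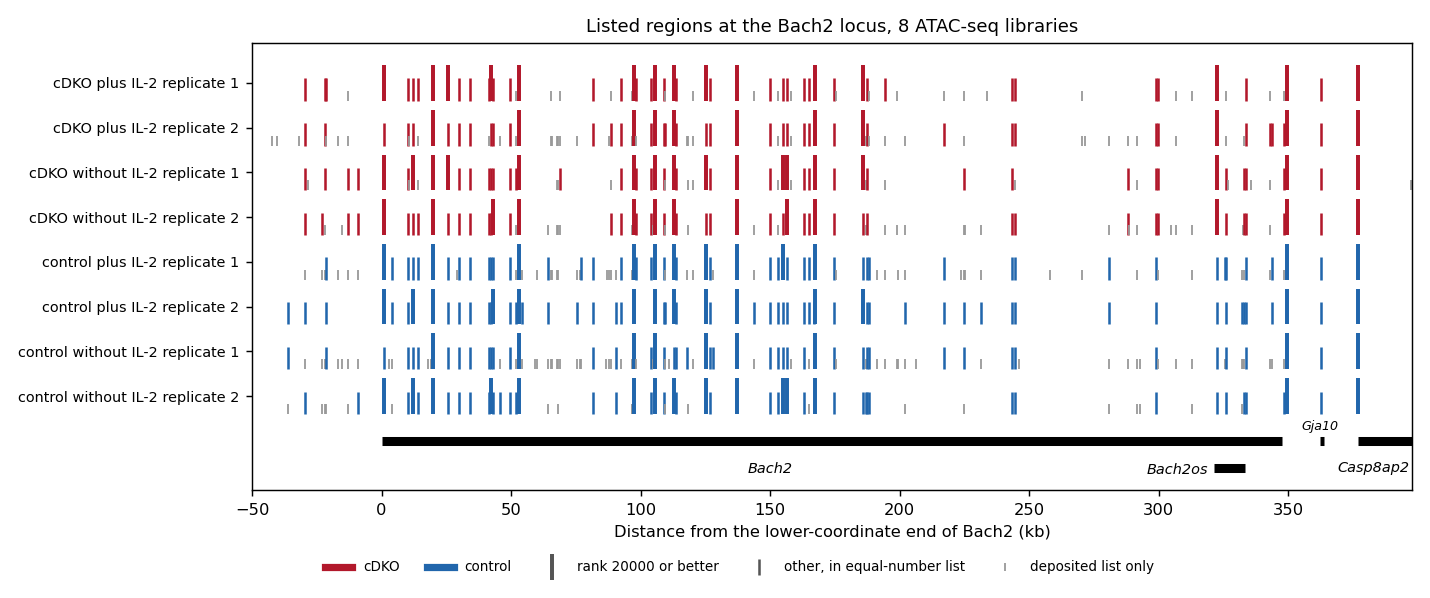
Regions at the Bach2 locus in each of 8 libraries (rows), by distance from the lower-coordinate end of the gene in kb; tall thick marks are regions ranked 20000 or better, middle marks other members of the equal-number lists (cDKO red, control blue), short grey marks regions in the deposited list only, and black bars are genes. The same 34 positions recur in all 8 rows, mostly in the first 50 kb and between 100 and 200 kb.

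The number of regions per library differed little between genotypes. Equal-number lists held 47 and 48 Bach2 regions in cDKO plus IL-2, 51 and 51 in cDKO without IL-2, 53 and 62 in control plus IL-2 and 49 and 50 in control without IL-2. The mean was 49.25 ± 2.06 in cDKO and 53.5 ± 5.92 in control (SD, n = 4 each), a difference of -4.25 that shrank to -1.42 without replicate 2 of control plus IL-2. It was -9.25 in deposited lists and 0 when the length of the equal-number lists was halved. With IL-2 the mean was 52.5 ± 6.86, against 50.25 ± 0.957 without (SD, n = 4 each). The sides overlapped in both comparisons. Bases covered by peaks averaged 25664.5 ± 1953 in cDKO and 27726.75 ± 1195 in control (SD, n = 4 each).

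**Figure D2:**
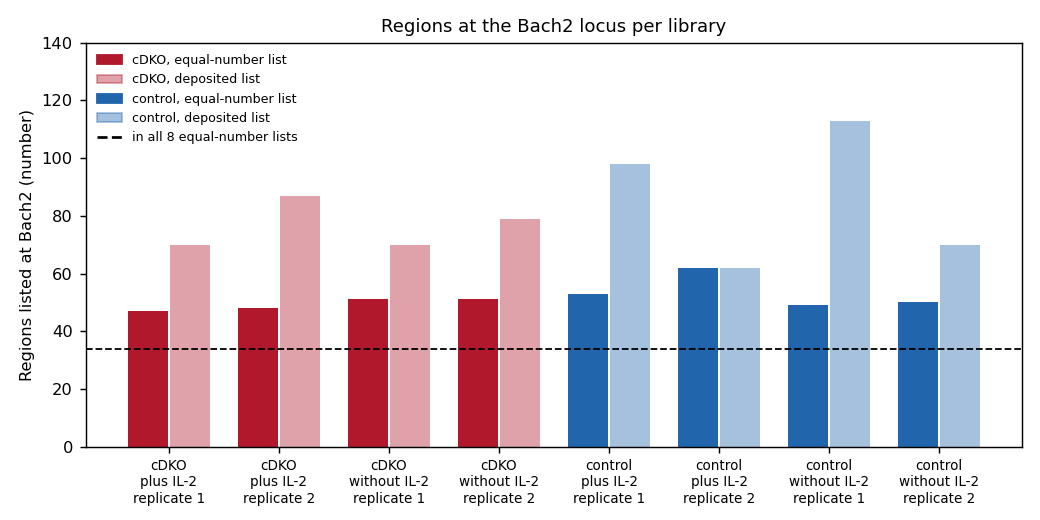
Number of Bach2 regions listed in each library (cDKO red, control blue), with solid bars for equal-number lists, pale bars for deposited lists and a dashed line at the 34 regions common to all 8 equal-number lists. Solid bars run from 47 to 62 and pale bars from 62 to 113, the widest spread being that of the deposited lists, which differ in length.

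The strongest region of the window was not Bach2's own. The region at the start of Casp8ap2, which encodes a protein that binds caspase-8, at chr4:32614857-32615986 ranked 1017 and 1155 in cDKO plus IL-2 and 425 and 684 in cDKO without IL-2. It ranked 1186 and 216 in control plus IL-2 and 1252 and 1045 in control without IL-2. Rank 1 is the largest −log10 p of a list, so this region was among the top peaks of every library.

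Within the gene the region of best median rank lay 19.9 kb from the lower-coordinate end (chr4:32257703-32258875). It ranked 971 and 5317 in cDKO plus IL-2, 3014 and 3103 in cDKO without IL-2, 3731 and 424 in control plus IL-2 and 9113 and 3744 in control without IL-2. Of the 34 regions it varied most, with a ratio of 21.5 between its worst and best ranks, and replicates of a group differed as much as groups did. The authors' fold over background for it was 11.3 and 8.55 in cDKO plus IL-2, 9.92 and 9.03 in cDKO without IL-2, 8.42 and 10.3 in control plus IL-2 and 6.87 and 8.01 in control without IL-2. Its difference for IL-2 was the highest of the locus, 1.32 in mean −log2 rank, but the ranks of both sides overlapped.

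The other 3 regions of best median rank were steadier. The region 168 kb into the gene (chr4:32405542-32406349) ranked 4178 and 6462 in cDKO plus IL-2, 6047 and 4735 in cDKO without IL-2, 4829 and 4894 in control plus IL-2 and 10049 and 4908 in control without IL-2. The region at 137 kb (chr4:32374799-32376662) ranked 7175 and 9588 in cDKO plus IL-2, 13197 and 11466 in cDKO without IL-2, 5246 and 7415 in control plus IL-2 and 5969 and 7218 in control without IL-2. Its difference for genotype was -0.66 in mean −log2 rank, with 1 cDKO rank, 7175, ahead of the control ranks 7218 and 7415. Just beyond the higher-coordinate end of the gene, the region at chr4:32587598-32588705 ranked 7898 and 8736 in cDKO plus IL-2, 10782 and 7148 in cDKO without IL-2, 5981 and 3965 in control plus IL-2 and 7653 and 4410 in control without IL-2. Its difference, -0.68, was the lowest of the 34 for genotype, and here too a single cDKO rank, 7148, lay ahead of a single control rank, 7653.

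The lower-coordinate end of the gene, upstream for a plus-strand gene, was covered by the widest region of the 34 (chr4:32238347-32240297, 1951 bp). It ranked 15089 and 20729 in cDKO plus IL-2, 18059 and 13628 in cDKO without IL-2, 16588 and 11573 in control plus IL-2 and 31303 and 15756 in control without IL-2. Its −log10 p was 34.1 to 44.5 in cDKO and 27.1 to 34.8 in control libraries. No region covered the higher-coordinate end.

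Loss of Tet1 and Tet3 was first compared by listing, where a region was called only if all 4 libraries of one genotype listed it in equal-number lists and none of the other did. Of 51 Bach2 regions in at least 4 lists, 1 was called higher in cDKO, against 1.05% of 64597 regions genome-wide, and 2 were called lower, against 1.66%. These counts carry no test. All 3 lay inside the gene at modest ranks, and with deposited lists none of the 3 was called.

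The lower region at 153 kb (chr4:32391292-32391622) was a rank difference rather than an absence. It ranked 82692 and 69368 in cDKO plus IL-2 and 84616 and 69699 in cDKO without IL-2, all beyond rank 65811. Control plus IL-2 had it at 33886 and 26689 and control without IL-2 at 47823 and 36848. The authors' fold was 3.05, 3.47, 2.88 and 3.31 in those cDKO libraries and 5.09, 4.67, 4.59 and 4.27 in the control libraries. The call by listing fixes that the ranks do not overlap. The fold values, which come from the same peaks, did not overlap either.

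The lower region at 188 kb (chr4:32426288-32426747) was listed at 74939 and 75530 in cDKO plus IL-2 and not at all in cDKO without IL-2. It ranked 56978 and 37521 in control plus IL-2 and 58492 and 26036 in control without IL-2. The higher region at 300 kb (chr4:32538113-32538366) ranked 38692 and 59215 in cDKO plus IL-2 and 31331 and 60745 in cDKO without IL-2. In each control group replicate 1 listed it only beyond the cutoff (71092 plus IL-2, 75560 without) and replicate 2 not at all.

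Deposited lists gave other regions: 0 of 85 were called higher in cDKO, against 0.527% of 97857 regions genome-wide, and 3 lower, against 0.518%. None of these 3 was called in equal-number lists. They lay 4.02 kb (chr4:32242241-32242631), 90.3 kb (chr4:32328605-32328910) and 332 kb (chr4:32570346-32570606) into the gene, the last inside Bach2os. The first ranked 64603 and 63933 in control plus IL-2 and 88000 and 69696 in control without IL-2 and was in no cDKO list. These lists are of unequal length, and the 3 regions were chosen after their values were seen.

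By rank, a region in all 8 equal-number lists was called when all 4 ranks of one genotype lay ahead of all 4 of the other. Of 34 Bach2 regions, 2 were called nearer the top in cDKO, against 6.15% of 40694 regions, and 0 further down, against 5.72%. An exact 2-sided permutation test over 70 relabellings of mean −log2 rank (rank divided by list length) gave p = 0.0286 for both, the smallest it allows. The adjusted p was 0.241 (Benjamini-Hochberg over the 40694 regions). Every region called by rank gets this p, here and below, so the p restates the call and is no further support. No region genome-wide had an adjusted p under 0.05, while 4831 (11.9%) had an unadjusted p under 0.05. The Bach2 count of 2 is near the background.

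The clearest difference lay inside both Bach2 and Bach2os, 322 kb into the gene (chr4:32560297-32561487). It ranked 15965 and 14726 in cDKO plus IL-2, 14044 and 11677 in cDKO without IL-2, 41027 and 22761 in control plus IL-2 and 31086 and 29875 in control without IL-2. Every cDKO rank lay ahead of every control rank. Mean −log2 rank was 2.23 ± 0.19 in cDKO and 1.11 ± 0.35 in control (SD, n = 4 each), a difference of 1.12, the highest of the 34 regions (exact permutation p = 0.0286, adjusted p = 0.241). The authors' fold was 10.0 to 10.5 in cDKO and 5.86 to 7.32 in control, and its −log10 p 33.7 to 48.1 in cDKO and 16.9 to 27.2 in control. Summits of all 8 libraries fell within 46 bp. The order held when ranking by fold (1.02) and in the deposited lists (1.18). Leaving out any 1 library gave differences from 0.98 to 1.26. It could not break the order, because the sides do not overlap in the full set.

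Further on, also inside Bach2os, the region at 326 kb (chr4:32564435-32564779) ran the other way; it was chosen after its values were seen. It ranked 69670 and 67043 in cDKO plus IL-2, beyond the cutoff, and 53004 and 59341 in cDKO without IL-2. Control plus IL-2 had it at 31866 and 44438 and control without IL-2 at 42621 and 32722. The ranks of the genotypes did not overlap, whereas the authors' fold did, at 4.08 to 4.86 in cDKO and 4.11 to 6.74 in control.

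The other region nearer the top in cDKO, at 127 kb (chr4:32365086-32365683), differed less. It ranked 34957 and 31866 in cDKO plus IL-2, 30731 and 34973 in cDKO without IL-2, 62668 and 39497 in control plus IL-2 and 48716 and 39036 in control without IL-2. The difference was 0.49 in mean −log2 rank (exact permutation p = 0.0286, adjusted p = 0.241), and with deposited lists, where it was 0.55, the sides overlapped.

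Over the 34 regions, 21 differences for genotype were positive and 13 negative, from -0.68 to 1.12, with a median of 0.08 against 0.04 over all 40694 regions. Ranks had a median ratio of 1.92 between a region's worst and best library, against 2.26 genome-wide. The first control library without IL-2, which has the longest list, was the worst-ranked library at 18 of the 34 regions and the best at 0, whereas genome-wide it was worst at 18.0% and best at 13.8% of regions. Leaving it out changed the genotype rank counts to 2 nearer the top and 2 further down of 34, against 9.58% and 8.71% of 41430 regions.

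**Figure D3:**
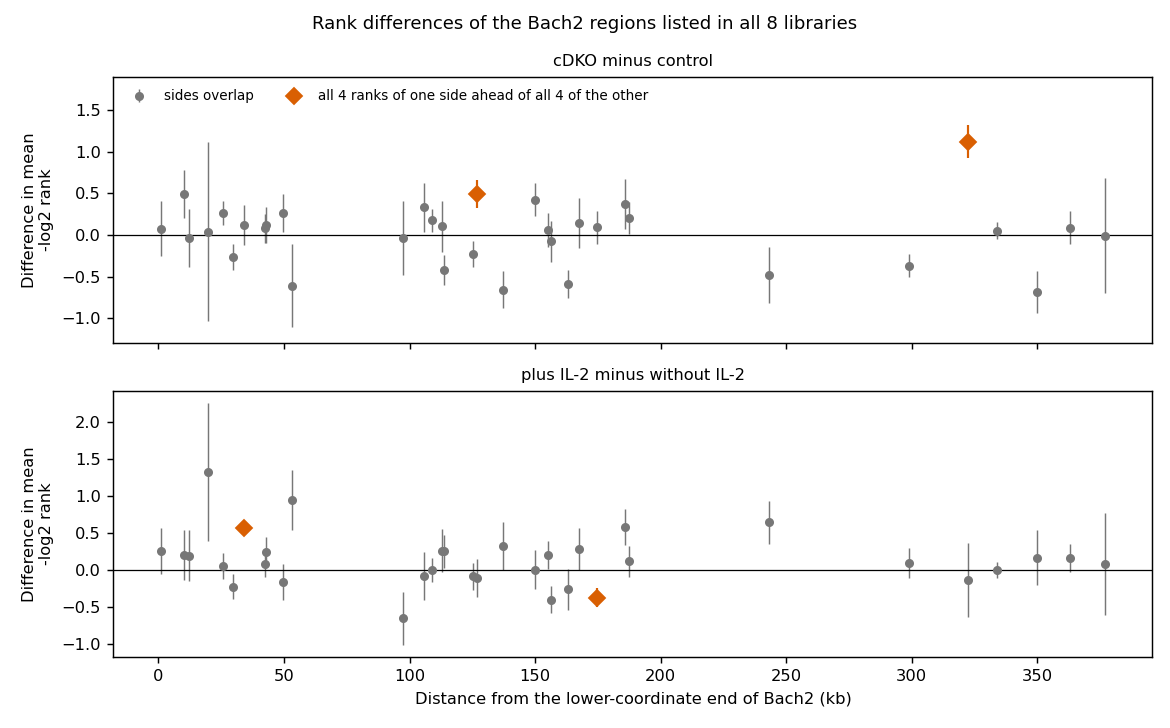
Difference in mean −log2 rank of the 34 Bach2 regions in all 8 equal-number lists (points, by distance from the lower-coordinate end in kb), cDKO minus control above and plus IL-2 minus without IL-2 below, with bars of 1 standard error from the SDs of both sides (4 libraries each). Orange diamonds mark regions whose sides do not overlap, the largest being 1.12 for genotype inside Bach2os.

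No Bach2 region was present in every library plus IL-2 and absent from every library without it, or the reverse. By listing, 0 of 51 Bach2 regions were called higher with IL-2, against 0.517% genome-wide, and 0 lower, against 0.341%. By rank, 1 of 34 was called nearer the top with IL-2, against 2.77%, and 1 further down, against 3.01%. The exact permutation test gave p = 0.0286 for each, a value fixed by the call, and an adjusted p of 0.494. Genome-wide, 0 regions had an adjusted p under 0.05, with 2353 (5.78%) under 0.05 unadjusted.

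The region nearer the top with IL-2, 34.2 kb into the gene (chr4:32272420-32272708), ranked 26986 and 26643 in cDKO plus IL-2, against 36624 and 41446 in cDKO without IL-2. In control it ranked 28909 and 28591 plus IL-2, against 39558 and 46924 without. The ranks plus IL-2 were close to each other in both genotypes, and the difference was 0.56 in mean −log2 rank. With deposited lists it was 0.37 and the sides overlapped.

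The region further down with IL-2, at 175 kb (chr4:32413005-32413355), lay a short way below the RefSeq promoter. It ranked 37285 and 38067 in cDKO plus IL-2, against 33171 and 27150 in cDKO without IL-2, and 34838 and 49238 in control plus IL-2, against 29753 and 32382 in control without IL-2. The difference was -0.37. Without replicate 2 of control plus IL-2 it was -0.27, and 4 of 35 regions were then called further down, against 4.46% of all regions. In deposited lists it was -0.57 and the sides overlapped. Over the 34 regions 23 differences for IL-2 were positive and 11 negative, with a median of 0.10, against -0.00 genome-wide.

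Other regions came close to a call, and the 4 named here were chosen after their values were seen. At 53.0 kb (chr4:32290861-32292003) a region ranked 11558 and 10312 in cDKO plus IL-2, 15607 and 17082 in cDKO without IL-2, 8375 and 3706 in control plus IL-2 and 17123 and 11044 in control without IL-2. Its difference for IL-2 was 0.94, and only the rank of 11044 without IL-2 lay ahead of a rank plus IL-2, 11558. The opposite sign was found at 97.6 kb (chr4:32335504-32336484), with ranks of 10002 and 11402 in cDKO plus IL-2, 6420 and 3574 in cDKO without IL-2, 9519 and 5682 in control plus IL-2 and 8811 and 4975 in control without IL-2. Its difference for IL-2, -0.65, was the lowest of the 34, and its sides overlapped.

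The region at 243 kb (chr4:32481417-32482006), alone between the longest gaps, ranked 35729 and 24062 in cDKO plus IL-2, against 58808 and 59643 in cDKO without IL-2. In control it ranked 26777 and 27707 plus IL-2, against 38733 and 27970 without. The difference for IL-2 was 0.64, and cDKO without IL-2 had it furthest down. Only the rank of 27970 without IL-2 lay ahead of a rank plus IL-2, 35729. For genotype, the region at 163 kb (chr4:32401475-32401779) ranked 45278 and 42849 in cDKO plus IL-2, 43824 and 31675 in cDKO without IL-2, 34268 and 25835 in control plus IL-2 and 25317 and 23583 in control without IL-2. Its difference was -0.59, with 1 cDKO rank, 31675, ahead of 1 control rank, 34268, and its summits agreed within 16 bp, the closest of the 34.

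Within single arms, a region was counted when both libraries of one group listed it and neither of the other did, a comparison of 2 against 2 with no test. In cells plus IL-2, cDKO against control gave 2 of 55 regions higher (background 5.1%) and 6 lower (5.62%). In cells without IL-2 it gave 6 of 55 higher (5.4%) and 4 lower (5.86%). IL-2 gave 1 of 52 higher (3.97%) and 5 lower (4.19%) in cDKO, and 6 of 56 higher (3.38%) and 0 lower (3.55%) in control. Several of these counts rose when 1 library was left out. That makes the rule looser, as 1 library then stands for its group, so no count could fall. Genome-wide shares under the looser rule are not given here. Without replicate 1 of control plus IL-2, the 6 lower in cDKO plus IL-2 became 18 and the 6 higher with IL-2 in control became 14. Without replicate 2 of control without IL-2, the genotype counts without IL-2 became 10 and 9. Most directions did not hold in deposited lists. For genotype these gave 3 of 87 regions higher (6.39%) and 6 lower (1.64%) plus IL-2, and 0 of 87 higher (2.45%) and 9 lower (6.26%) without. For IL-2 they gave 6 of 79 higher (3.94%) and 1 lower (3.45%) in cDKO, and 0 of 96 higher (0.376%) and 3 lower (5.76%) in control.

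Some regions of this kind were absent from single groups, and those named here were chosen after their values were seen. The region at 81.5 kb (chr4:32319488-32320388) ranked 35065 and 20968 in cDKO plus IL-2, was in neither list of any length in cDKO without IL-2, and ranked 35136 and 27008 in control plus IL-2 and 50672 and 58162 in control without IL-2. In control the ranks plus IL-2 were ahead of those without. In cDKO plus IL-2 the authors' fold reached 8.65 and 11.8, well before the end of the list.

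The region at 92.6 kb (chr4:32330710-32331275) had its gap in control instead. It ranked 25401 and 24382 in cDKO plus IL-2, 34975 and 39460 in cDKO without IL-2 and 53056 and 26752 in control plus IL-2. In control without IL-2 replicate 1 had it at 69070, beyond the cutoff, and replicate 2 not at all. Between them, the region at 90.3 kb (chr4:32328605-32328910) was in no cDKO list of any length. It ranked 72246, beyond the cutoff, and 55062 in control plus IL-2, and 53818 and 29120 in control without IL-2.

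**Figure D4:**
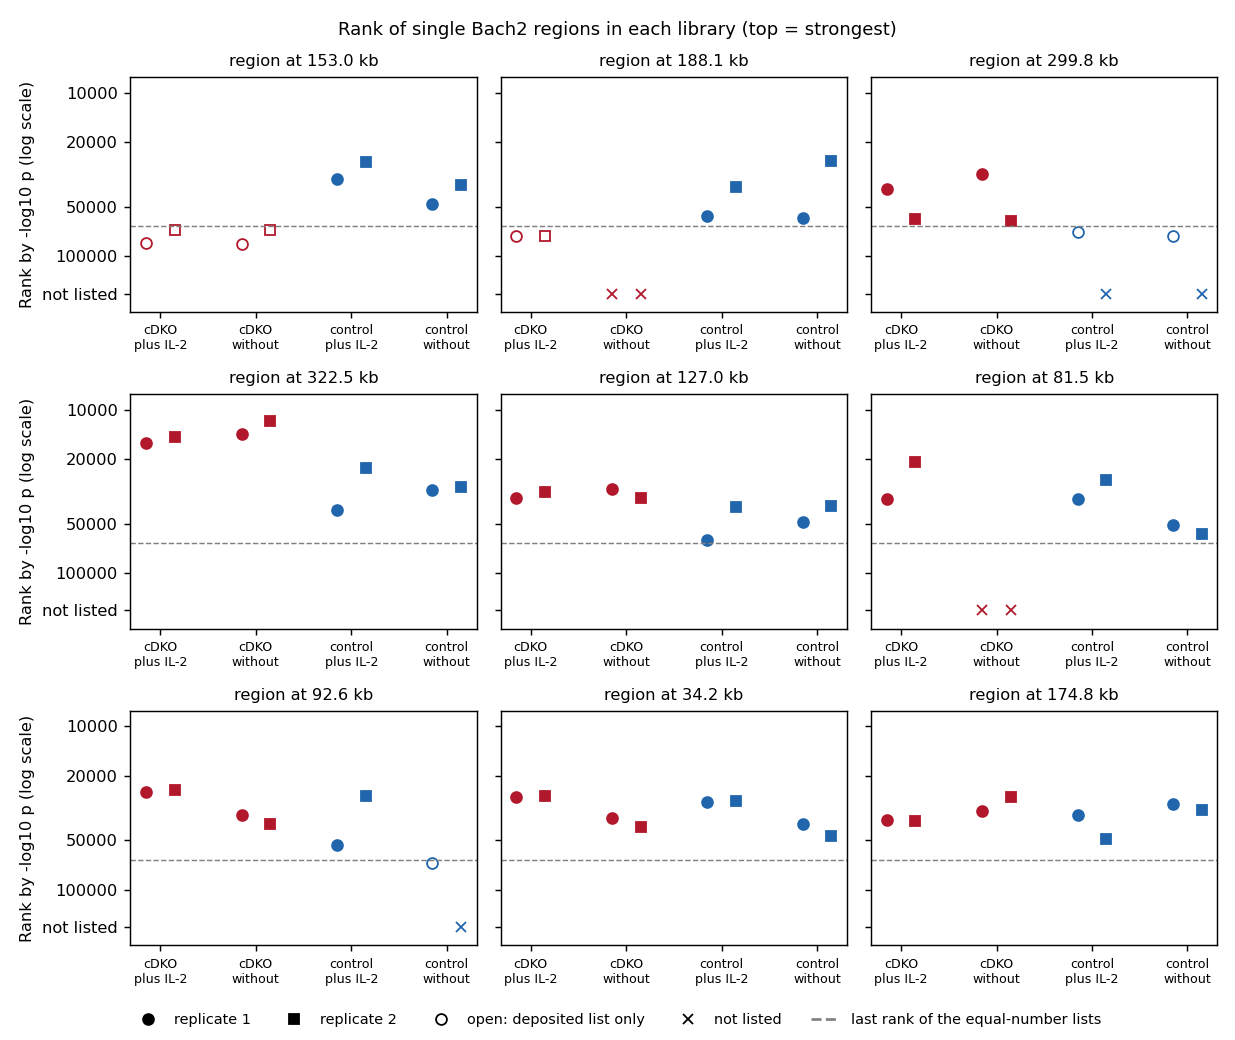
Rank (log scale, strongest at the top) of 9 Bach2 regions in each library, with circles for replicate 1 and squares for replicate 2, cDKO in red and control in blue, open symbols for deposited lists only and crosses where the region was not listed. At 322 kb all 4 cDKO ranks (11677 to 15965) lie above all 4 control ranks (22761 to 41027), and at 81.5 kb only cDKO without IL-2 lacks the region.

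Other genes of the pathway were counted in the same kind of window. The Bach family and small Maf partners (Bach1, Maff, Mafg and Mafk) had 1 of 50 regions higher in cDKO and 2 lower by listing. Over all regions the shares were 1.05% and 1.66%. By rank 2 of 36 were nearer the top and 2 further down, against 6.15% and 5.72% of all regions. The lower ones lay at Bach1, the closest relative of Bach2, and the higher one at Mafk, which encodes a small Maf partner. Their median difference was 0.06.

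AP-1 genes with Irf4 and Prdm1 (10 genes) had 2 of 144 regions higher, both at Jund, and 3 lower, at Batf3, Fos and Irf4. By rank 2 of 99 (2.02%) were nearer the top and 6 (6.06%) further down, against 6.15% and 5.72% of all regions. The median was -0.02. Of those 6, 4 lay at Jun, which encodes an AP-1 subunit and was chosen after its values were seen. Jun had 8 regions in all lists and the lowest median of the 10 genes, -0.73. Prdm1, the classic target of Bach2 repression, had 0 called regions among 11 in at least 4 lists, and a median of 0.07. Fos and Irf4 each had 1 region higher with IL-2, which made 2 of 144, against 0.517% of all regions.

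Naive and memory T cell genes (13) had 5 of 304 regions higher and 12 lower in cDKO, and 12 of 186 nearer the top and 14 further down, with a median of 0.03. Foxp1, which like Bach2 supports the naive state, had 4 of 59 regions lower and 0 higher. By rank 5 of its 39 were further down and 0 nearer the top. Foxp1 had the most regions of the 13, 173, and Ets1 differed by rank, with 3 nearer the top and 1 further down. Lef1, which encodes a factor related to that of Tcf7, had 1 higher and 2 lower and the highest median of the 13, 0.48. Satb1, which encodes a chromatin organiser, had 0 higher and 1 lower and the lowest, -0.45. Foxp1, Ets1, Lef1 and Satb1 were all chosen after their values were seen. Over all regions the shares were 1.05% higher and 1.66% lower by listing and 6.15% nearer the top and 5.72% further down by rank. The median over all regions was 0.04.

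The genes whose share of regions listed per library followed that of Bach2 most closely, among 7627 protein-coding genes with at least 20 regions, were Gdpd3 (Pearson's r = 0.97 over 8 libraries), Camk4 (0.95), Dock10 (0.95), Aatf (0.94) and Hspa9 (0.94). The median gene had r = -0.06, and 23 were above 0.9. The share at Bach2 was 35.3% and 36.1% in cDKO plus IL-2, 38.3% in both libraries of cDKO without IL-2, 39.8% and 46.6% in control plus IL-2 and 36.8% and 37.6% in control without IL-2. Each of the 5 genes also had its highest share in the second control library plus IL-2, whose part in the likeness was not tested.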

How the data were processed

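ATAC-seq peak lists of 8 libraries were used as the authors deposited them. The submitters' processing notes list HOMER 4.11.1, ChIPseeker 1.18.0, DiffBind 2.10.0, MACS2 2.2.7.1, SAMtools 1.3.1, Picard, Bowtie2 2.4.1 and Trimmomatic 0.39 with build GRCm38 (mm10), without roles. Peaks were deposited per library. The sources used here do not give settings for read shifting or duplicates. Every peak carries in the deposited lists the authors' fold over background (a ratio). It also carries the authors' −log10 p and −log10 q, with q up to 0.05. No counts or depths were used, so no interval for counting error can be given.

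Peaks were merged at 1 bp of overlap. Each list was cut to the 65811 peaks of largest −log10 p, the length of the shortest. A region's value was −log2 of its best rank over 65811, and differences are cDKO minus control or plus IL-2 minus without IL-2, so a positive one means nearer the top in cDKO or plus IL-2. Regions were called by listing (4 libraries against 0) or by rank (no overlap), with an exact permutation test per region adjusted over all regions in all 8 lists. Calls were tested on simulated data. Genes came from RefSeq (GRCm38.p6), whose table gives gene bodies, so exons and introns were not analysed here. Regions named are all those called, the 5 of best median rank, those over a gene end, and others said to be chosen after their values were seen. The members and lists were chosen with earlier results of these data known. Alternatives were deposited lists, N halved, ranking by fold, 50% coverage, the gene body alone, a looser call, a replicate block and leaving out each library. One marker list is not reported here. Python 3.11.15, numpy 2.4.6 and pandas 2.3.3 were used.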

Additional observations from a re-analysis of the deposited data

Results flagged for a closer look

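Among 26 sets of 4 ranks tested for a library apart from the rest (chance gives about 1 in 20) with Dixon's criterion, 2 passed, both in control. At the Casp8ap2 promoter region (chr4:32614857-32615986) replicate 2 of control plus IL-2 ranked 216, against 1045 to 1252 in the other 3, and the gap took up 0.897 of the range of −log2 rank. At the region 168 kb into Bach2 (chr4:32405542-32406349) replicate 1 of control without IL-2 ranked 10049, against 4829 to 4908 in the other 3, a gap of 0.978 of the range.

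At the region from 32351900 to 32352166, 114 kb into Bach2, ranks plus IL-2 were further down than those without in cDKO (50865 and 50468 plus IL-2, 49104 and 49729 without) and nearer the top in control (33360 and 28767 plus IL-2, 50971 and 39733 without). This difference between genotypes was not tested. It was seen at 1 of 34 Bach2 regions and at 4.01% of all 40694, so its share is near the background, and the ranks in cDKO differ by little.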

How the results depend on the processing

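None of the regions called in the main setting reversed its direction under an alternative that gave it a value. Other regions were not followed. The region inside Bach2os at 322 kb kept its genotype call in deposited lists and when ranking by fold. N halved and 50% coverage gave it no value. Leaving out a library could not undo that call or reverse a called region, because a call needs full separation of the sides. Causes were not tested.

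Counts by listing, in the order higher and lower in cDKO, then higher and lower with IL-2, were 1, 2, 0 and 0. Deposited lists gave 0, 3, 0 and 0 of 85, against 0.527%, 0.518%, 0.0572% and 0.396% of all regions. N halved gave 0, 0, 1 and 0 of 24, against 1.23%, 1.73%, 0.66% and 0.463%. Ranking by fold gave 0, 0, 0 and 0 of 34, against 0.947%, 1.32%, 0.443% and 0.381%. The looser call (at least 3 of 4 against at most 1) gave 4, 5, 3 and 3 of 57, against 6.21%, 6.79%, 3.85% and 4.09%. Leaving out 1 library, which loosens the rule, gave 1 to 2, 2 to 3, 0 to 1 and 0 to 1. The shares of all regions were then 1.25% to 1.57%, 1.77% to 2.35%, 0.576% to 1.07% and 0.45% to 0.831%. Counts by rank, in the order nearer the top and further down in cDKO, then nearer and further down with IL-2, were 2, 0, 1 and 1. Deposited lists gave 3, 3, 0 and 2 of 43, against 3.84%, 3.12%, 0.699% and 3.32% of all regions. N halved gave 0, 0, 0 and 0 of only 16, against 5.12%, 4.52%, 2.37% and 2.44%. Ranking by fold gave 1, 0, 0 and 1 of 16, against 4.72%, 3.41%, 2.53% and 2.16%. With 50% coverage the counts were 1, 0, 1 and 0 of 26, against 5.52%, 5.2%, 2.66% and 2.69%. Leaving out 1 library, which loosens this rule too, gave 2 to 4, 0 to 2, 1 to 3 and 1 to 4. The shares of all regions were then 7.67% to 9.58%, 6.88% to 8.71%, 3.85% to 4.91% and 3.9% to 5.71%. The count further down with IL-2 rose to 4 without replicate 2 of control plus IL-2. The difference in regions per library, -4.25, ranged from -5.75 to -1.42 without 1 library and was -9.25 in deposited lists and 0 with N halved.

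Between groups, the deviations of samples sharing a replicate number correlated with r from -0.19 to 0.38. The highest was between control without IL-2 and control plus IL-2. With 2 libraries per group these values cannot decide whether the numbers pair the samples. With a replicate block the 4 rank counts were 3, 5, 4 and 5 of 34, against 15.2%, 12.8%, 11.8% and 12.4% of all regions. With numbers crossed in the plus IL-2 arm, an option added after seeing the data, the genotype counts were 4 and 3. Shares of all regions for the crossed numbers are not given here, so those counts have no background.

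Within arms, deposited lists and N halved (added after the data were seen) gave 0 and 0 higher and 9 and 1 lower for genotype without IL-2, with 6 to 10 and 4 to 9 when 1 library was left out. Leaving 1 out loosens the rule, so these ranges cannot lie below the main counts. Within arms, shares of all regions for N halved and for runs without 1 library are not given here. Those counts therefore have no background. For genotype plus IL-2, N halved gave 1 higher and 0 lower, with 3 to 5 and 8 to 18. For IL-2 in cDKO they gave 6 and 2 higher and 1 and 0 lower, with 2 to 5 and 6 to 8. For IL-2 in control they gave 0 and 1 higher and 3 and 1 lower, with 6 to 14 and 1 to 4. Read depth per library is unknown and was not corrected for.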
